A study of Oryza sativa with 8 samples.

Results

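The genes described here were at least doubled with salt in both the leaf blade and the leaf sheath of rice (Oryza sativa), and 199 of the 5827 genes listed in either tissue met that rule. A gene was taken when the log2 ratio of its salt level to its control level, with 1 added to each level, was at least 1 in the blade table and in the sheath table. Of 214 genes that met both ratios, 15 were left out by the rule and are not analysed here. The genes were thus chosen by the measured ratios of both contrasts, which are given as descriptions with no test, and the authors' test values for the same contrasts support nothing further.

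RNA was sequenced from plants in hydroponic culture, in 4 groups of 2 samples: blades with salt, blades of controls, sheaths with salt and sheaths of controls. The salt groups had received 100 mM NaCl for 24 h. The study's description concerns SZK, a rice whose physiology was set against the salt-tolerant variety FL478 and the salt-sensitive variety Kunishi, but the sample labels name no variety. Nor do they state whether samples sharing a group are different plants, so deposited p-values and standard errors cover no more than the variation from sample to sample, possibly technical.

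Plant cells meet damaged proteins with heat shock proteins, which bind, refold or pull apart proteins that have lost their shape. Heat stress transcription factors switch these genes on, and heat is only one of the stresses that can do so. Salt also makes water harder to take up and raises abscisic acid, a hormone whose signal is held back by several protein phosphatases of type 2C and which acts through transcription factors. Blades carry most of the photosynthesis of a rice leaf, and sheaths wrap the stem and can retain sodium.

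The deposited tables hold only genes that the authors had already selected as changed, 4623 in blades and 1998 in sheaths, with 794 in both. Each value is the authors' mean or level of a group of 2, and no value per sample was analysed here. The listed blade genes carried a mean of 9995664 reads in salt and 10745825 in control samples, and no read total of the sheath libraries is known. Blade levels are in TPM, a share of all transcripts that is corrected for length. The header does not name the unit of the sheath levels, so salt is compared with control within a gene. Counts, ranks and correlations that use sheath levels across genes are descriptions in that unnamed unit. The photosynthesis genes RBCS and CAB2R, used to check the tissue label, were present in the blade table at 28778 and 10873 TPM with salt, against 53569 and 15132 TPM in control. Neither was in the sheath table, nor were the shoot meristem gene OSH1 and the sugar carrier gene SWEET14 in either table, so the sheath label could not be checked. In whole tissue, a change in the share of a cell type and a change of RNA per cell cannot be told apart.

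Doubling was common among the listed genes. At least doubled were 842 of the 4623 listed blade genes, or 18.2%, and 415 of the 1998 listed sheath genes, or 20.8%. Any higher level with salt was listed for 51.9% of the blade genes and 45.6% of the sheath genes. Of the 794 shared genes, 38.2% were doubled in blades, 37% in sheaths and 27% in both, and the rule used these same ratios. The 214 doubly raised genes made up 25.4% of the genes doubled in blades and 51.6% of those doubled in sheaths. Opposite movement was infrequent: of 303 genes doubled in blades and listed in sheaths, 287 were higher and 16 lower in sheaths with salt. Likewise, of 294 genes doubled in sheaths and listed in blades, 274 were higher and 20 lower in blades with salt. Most shared genes were higher with salt in any case: over all 794, the lower quartile of the blade log2 ratio was 0.46. In sheaths the lower quartile over the 794 was -0.61 and the median 0.78. The counts of opposite movement are to be read beside that base.

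With 1 added to each level, the log2 ratios of the 199 genes had a higher median and a wider range in blades than in sheaths. The blade log2 ratio had a median of 1.79, quartiles of 1.35 and 2.64, and a range of 1.003 to 5.50. The sheath log2 ratio had a median of 1.58, quartiles of 1.26 and 2.07, and a range of 1.01 to 4.41. Across all 794 shared genes, including those lower with salt, the medians were 0.73 in blades and 0.78 in sheaths. A log2 ratio of at least 2 was reached by 87 genes in blades, by 55 in sheaths and by 36 in both; of all 794 shared genes, 5.42% did so in both, and the rule used these ratios. A ratio of at least 3 was reached by 39 genes in blades, by 6 in sheaths and by 4 in both. Across the 199 genes the blade and sheath ratios had a Spearman correlation of 0.39, a description over genes that share the same libraries and were all chosen for high ratios.

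**Figure D1:**
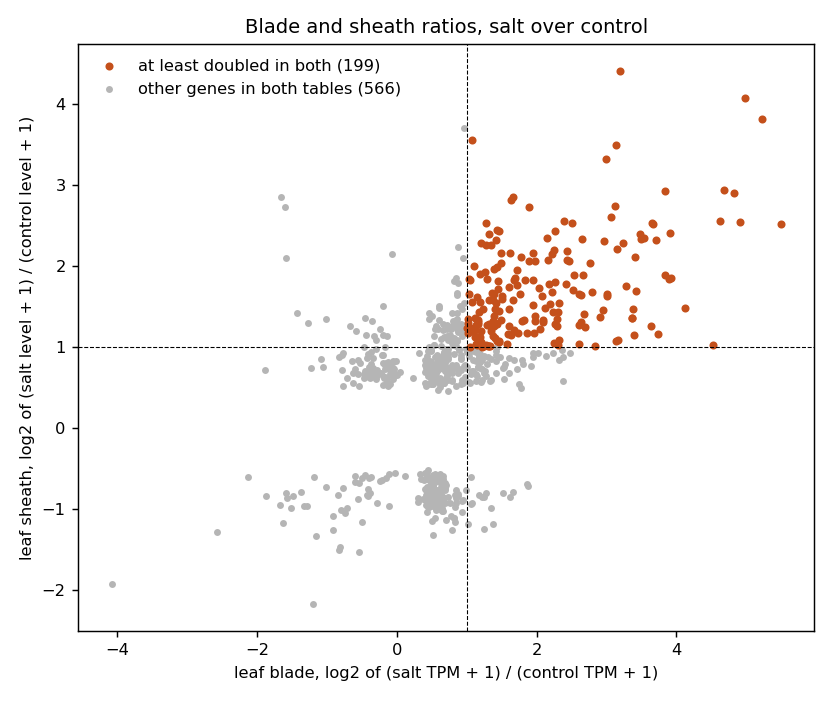
Log2 ratio of salt over control, with 1 added to each level, in the leaf blade (horizontal axis) and in the leaf sheath (vertical axis) for the genes in both tables, without the identifiers that the rule skips. Each point is a gene, orange points are the 199 genes at least doubled in both tissues, grey points are the others, and the dashed lines mark the threshold of 1. Orange points stretch farther along the blade axis, up to 5.50, than along the sheath axis, up to 4.41.

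Levels ranged from almost silent to abundant. The median gene stood at 24.8 TPM in blades with salt, against 3.62 TPM in control, and at a level of 15.7 in sheaths with salt, against 3.78 in control. In control, 62 genes were under 1 TPM in blades, 43 were under a level of 1 in sheaths, and 32 were under 1 in both. With salt, 36 genes reached at least 100 TPM in blades, 22 a level of at least 100 in sheaths, and 18 both. As the sheath unit is unnamed, the cut-offs of 1 and 100 need not mean the same in both tissues. Together the 199 genes held 1.61% of all blade TPM with salt and 0.476% in control. Genes high in a tissue tended to be high in the other: the Spearman correlation between tissues was 0.69 for salt levels and 0.64 for control levels over the 199 genes.

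The deposited test values are from the same contrasts as the rule and describe the genes only. In the authors' deposited table for blades, q was at most 1e-10 for 131 of the 199 genes, and the highest was 0.0358. In the authors' deposited table for sheaths, the adjusted p was at most 1e-10 for 84 of them, and the highest was 0.004, and 71 genes met both. All listed genes had been selected as changed, with the authors' deposited q at most 0.0499 in blades and adjusted p at most 0.004 in sheaths. The share of each whole table at or under 1e-10 is not given here, so these counts set the 199 genes apart from no others. The standard error in the authors' deposited table for sheaths had a median of 0.286 over the 199 genes, against 0.197 over the whole sheath table.

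Names could be checked for 23 of the 199 genes, and 15 of these encode heat shock proteins, large chaperones or heat stress factors. The names come from general knowledge and were kept only where the reference name table holds them on the same chromosome and in the same order, so the remaining 176 genes are given by identifier only. The share of named genes in a class therefore says nothing of the share among all 199.

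Among the 199 genes were 9 small heat shock protein genes, whose products hold unfolding proteins in a refoldable state. HSP17.9A (Os03g0266300), a cytosolic class I protein, had 125 TPM in blades with salt, against 4.48 TPM in control, and a level of 148 in sheaths with salt, against 72.0 in control. HSP18.1 (Os03g0267000), also of class I, had 78.7 TPM in blades with salt, against 2.25 TPM in control, and a level of 99.3 in sheaths with salt, against 16.1 in control. Both gained most in blades, where control levels were low.

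HSP18.0 (Os01g0184100), a cytosolic class II protein, was the most abundant of the 9 in blades with salt, at 385 TPM. In control blades it had 25.98 TPM, less than HSP16.0 and HSP24.1. Its sheath level was 620 with salt and 167 in control. The class I genes HSP16.9A (Os01g0136100) and HSP16.9B (Os01g0136200) stood at 55.2 and 24.5 TPM in blades with salt, against 4.39 and 1.47 TPM in control. In sheaths their levels were 40.8 and 32.3 with salt, against 14.0 and 11.96 in control. HSP16.9A, HSP16.9B and HSP18.1 have estimated rather than whole read counts, so reads may have been divided between near-identical copies and their separate values are uncertain.

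HSP18.6 (Os02g0782500), of class III, had 38.5 TPM in blades with salt, against 3.56 TPM in control, and a level of 30.0 in sheaths with salt, against 3.63 in control. Small heat shock proteins also serve organelles, and 3 such genes were raised. HSP24.1 (Os02g0758000), of mitochondria, had 165 TPM in blades with salt, against 34.4 TPM in control, and a level of 189 in sheaths with salt, against 41.7 in control. HSP26.7 (Os03g0245800), of chloroplasts, had 11.9 TPM in blades with salt, against 0.035 TPM in control, and a level of 12.3 in sheaths with salt, against 4.53 in control. The blade control mean of HSP26.7 rests on 1 read over both libraries, and its read ratio of 313 had a 95% counting interval of 55.8 to 12402. HSP16.0 (Os06g0253100), of peroxisomes, had 315 TPM in blades with salt, against 116 TPM in control, and a level of 78.3 in sheaths with salt, against 13.5 in control.

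Summed over the 9 genes, small heat shock transcripts came to 1199 TPM in blades with salt, against 193 TPM in control. The log2 ratios ran from 1.43 to 4.62 in blades (median 3.38) and from 1.03 to 2.74 in sheaths (median 1.89). In 8 of 9 the blade ratio was above the sheath ratio, and in 6 of 9 by at least 1. HSP24.1 counts among the 8 on a gap of 0.079, and with the fold changes of the authors' deposited tables it turned, at 2.07 in blades and 2.15 in sheaths, which leaves 7 of 9. HSP16.0 was the exception, with a log2 ratio of 1.43 in blades and 2.45 in sheaths. Over all 199 genes the blade ratio was the larger in 130. The difference between tissues was not tested, since the tables were made separately and hold no value per sample.

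With 1 added to each level, the widest gap between the tissues' log2 ratios in 3 larger chaperone genes was 0.65, that of HSP101. HSP101 (Os05g0519700), which pulls proteins out of aggregates, had 17.6 TPM in blades with salt, against 1.40 TPM in control, and a level of 17.8 in sheaths with salt, against 2.80 in control. CLPB3 (Os02g0181900), an organelle relative of HSP101, had 14.8 TPM in blades with salt, against 5.05 TPM in control, and a level of 6.87 in sheaths with salt, against 2.15 in control. HSP82 (Os08g0500700), of the HSP90 family, had 142 TPM in blades with salt, against 39.2 TPM in control, and a level of 158 in sheaths with salt, against 43.9 in control. Their log2 ratios in blades and sheaths were 2.96 and 2.31 for HSP101, 1.38 and 1.32 for CLPB3, and 1.83 in both tissues for HSP82. For HSP101 the gap was wider with the fold changes of the authors' deposited tables, at 4.20 in blades and 2.31 in sheaths. Which tissue had the larger ratio turned for CLPB3 with 0.1 added (1.53 in blades and 1.63 in sheaths) and for HSP82 with 5 added (1.736 in blades and 1.742 in sheaths). HSP82 also turned with the deposited fold changes, at 1.67 in blades and 1.83 in sheaths. Both turned with the deposited blade fold change and the sheath statistic times standard error. Blade and sheath values were then 1.36 and 1.70 for CLPB3, and 1.67 and 1.89 for HSP82.

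Heat stress factor genes were raised as well, 3 of them by name. HSFA2A (Os03g0745000), of the activating class A, had 3.02 TPM in blades with salt, against 0.045 TPM in control, and a level of 14.5 in sheaths with salt, against 2.48 in control. The blade control of HSFA2A had 3 reads over both libraries, and the read ratio of 62.9 had a 95% counting interval of 21.2 to 307. HSFB2C (Os09g0526600), of class B, which lacks the activation domain of class A, had 60.8 TPM in blades with salt, against 21.5 TPM in control, and a level of 39.5 in sheaths with salt, against 10.5 in control. HSFB2B (Os08g0546800), also of class B, had 8.37 TPM in blades with salt, against 3.05 TPM in control, and a level of 2.14 in sheaths with salt, against 0.506 in control. HSFB2B lay near the threshold, at log2 ratios of 1.21 in blades and 1.06 in sheaths.

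**Figure D2:**
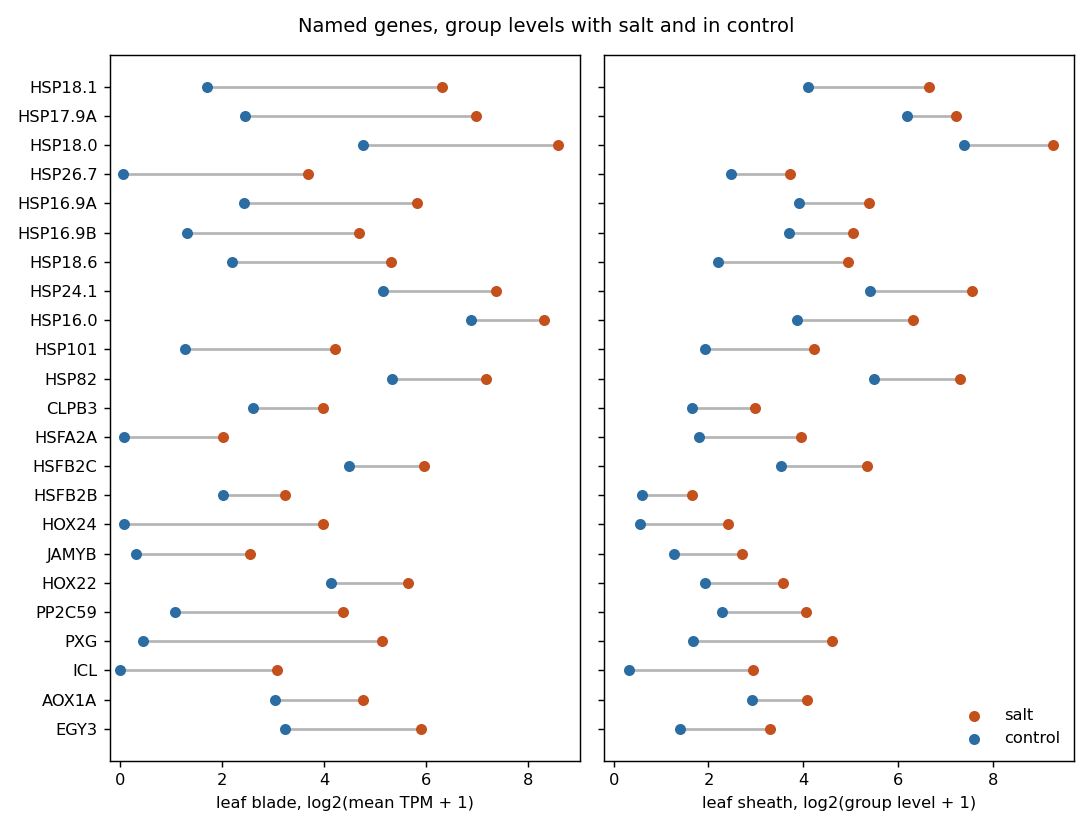
Group levels of the 23 named genes on a log2 scale with 1 added, in leaf blades (left, mean TPM) and leaf sheaths (right, level of unnamed unit). Orange points are salt, blue points are control, a grey line joins the 2 group values of a gene, and there is no error bar because values per sample are not analysed. All orange points lie right of their blue points, and among the small heat shock protein genes at the top the lines are longer in blades than in sheaths for all but HSP16.0.

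The wider heat shock list used here held 18 genes with a checked name. It was drawn up with earlier results of these data known, so it is no independent evidence of a direction. Blade values were listed for 13 of the 18, and 13 of 13 were higher with salt and at least doubled, beside 51.9% higher and 18.2% doubled over the whole blade table. Sheath values were listed for 15, of which 14 were higher and 1 lower with salt, and 12 were at least doubled, beside 45.6% higher and 20.8% doubled over the whole sheath table. Both ratios were met by 12, of which 10 are among the 199 genes and the rest were left out by the rule. HSP17.7 (Os03g0267200), another class I gene, fell just short in sheaths: its log2 ratio was 2.36 in blades and 0.97 in sheaths.

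PP2C59 (Os06g0698300), which encodes a protein phosphatase of type 2C, had 19.5 TPM in blades with salt, against 1.11 TPM in control. Its sheath level was 15.6 with salt and 3.91 in control, and its log2 ratios were 3.28 in blades and 1.76 in sheaths. The transcription factor genes HOX24 and HOX22 encode homeodomain leucine zipper proteins of class I. HOX24 (Os02g0649300) had 14.7 TPM in blades with salt, against 0.050 TPM in control, and a level of 4.29 in sheaths with salt, against 0.474 in control. HOX22 (Os04g0541700) had 49.0 TPM in blades with salt, against 16.5 TPM in control, and a level of 10.9 in sheaths with salt, against 2.82 in control. HOX22 thus had the higher TPM in both blade groups and HOX24 the larger blade ratio, which rests on 2 control reads (read ratio 274, 95% counting interval 75.6 to 2269). JAMYB (Os11g0684000), a MYB factor named for its response to jasmonate, had 4.83 TPM in blades with salt, against 0.240 TPM in control, and a level of 5.50 in sheaths with salt, against 1.40 in control.

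The remaining named genes belong to metabolism and the chloroplast. ICL (Os07g0529000) encodes isocitrate lyase, the enzyme that lets the glyoxylate cycle turn fat-derived carbon into sugar. In blades ICL had 7.41 TPM with salt, against 0 reads in both control libraries, and its reads were at least 157-fold higher when the control group is set to a floor of 3 reads in all. The sheath level of ICL was 6.69 with salt and 0.260 in control. PXG (Os04g0511200) encodes a peroxygenase of the caleosin family, proteins of oil bodies that oxidise fatty acids. It had 33.9 TPM in blades with salt, against 0.365 TPM in control, and a level of 23.5 in sheaths with salt, against 2.19 in control. Its log2 ratios were 4.68 in blades and 2.94 in sheaths.

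AOX1A (Os04g0600200) encodes the alternative oxidase, which lets mitochondria pass electrons to oxygen around the cytochrome path. It had 26.2 TPM in blades with salt, against 7.20 TPM in control, and a level of 16.03 in sheaths with salt, against 6.52 in control. EGY3 (Os03g0729000) encodes a chloroplast protein of a zinc metalloprotease family. It had 58.4 TPM in blades with salt, against 8.33 TPM in control, and a level of 8.83 in sheaths with salt, against 1.66 in control. Both genes had the larger log2 ratio in blades, 1.73 in blades and 1.18 in sheaths for AOX1A and 2.67 in blades and 1.89 in sheaths for EGY3.

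Some other lists of stress genes with checked names can be set beside the 199 genes, whereas lists with genes that met both ratios but were left out by the rule are not described here. Of 16 stress transcription factors outside the heat group, 9 were listed in blades, all higher and 6 at least doubled. In sheaths 5 were listed, of which 3 were higher and 2 lower, and 2 were at least doubled. HOX22 and HOX24 are the 2 that met both ratios. Over the whole tables, 51.9% of blade genes were higher and 18.2% doubled, and 45.6% of sheath genes were higher and 20.8% doubled. Of 6 ion transport genes, 2 were listed in each tissue, both higher in blades and both lower in sheaths with salt, too few to set against the shares of whole tables, where 51.9% of blade genes and 45.6% of sheath genes were higher. Of 10 aquaporin genes, 4 were higher and 3 lower in blades and 2 were higher in sheaths, and of 9 antioxidant enzyme genes, 3 were higher and 3 lower in blades and 2 were higher in sheaths. None of the ion transport, aquaporin or antioxidant genes with a checked name was at least doubled in both tissues.

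The largest responses in both tissues together were in genes without a checked name. Os01g0615100 was the only gene with log2 ratios of at least 4 in both: it had 34.1 TPM in blades with salt, against 0.115 TPM in control, and a level of 57.4 in sheaths with salt, against 2.46 in control. Its blade control rests on 1 read over both libraries, so its read ratio of 267 had a 95% counting interval of 47.6 to 10594. Os06g0681200 had 39.8 TPM in blades with salt, against 0.090 TPM in control, and a level of 19.96 in sheaths with salt, against 0.485 in control. Os08g0508000 had 8.24 TPM in blades with salt, against 0.055 TPM in control, and a level of 13.4 in sheaths with salt, against 0.277 in control. These 3 genes were close to silent in control blades, and Os06g0681200 and Os08g0508000 also had control levels under 1 in sheaths.

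With 1 added to each level, Os01g0944100 had the largest sheath ratio of the 199 genes; with 0.1 added Os11g0181200, listed at 0 in control sheaths, came first. Its sheath level was 49.9 with salt and 1.39 in control, and its blade mean was 58.6 TPM with salt and 5.52 TPM in control. Os03g0820500 had 155 TPM in blades with salt, against 18.7 TPM in control, and a level of 41.3 in sheaths with salt, against 3.25 in control. For both genes the sheath ratio was the larger, with log2 ratios in blades and sheaths of 3.19 and 4.41 for Os01g0944100 and of 2.99 and 3.32 for Os03g0820500.

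In 4 further genes the blade ratio was the larger. With 1 added to each level, Os03g0286900 had the largest blade ratio of the 199 genes, whereas with 0.1 added Os06g0681200 did. Os03g0286900 had 217 TPM in blades with salt, against 3.83 TPM in control, and a level of 71.4 in sheaths with salt, against 11.6 in control. Os04g0352400 had 137 TPM in blades with salt, against 3.88 TPM in control, and a level of 213 in sheaths with salt, against 27.7 in control. Os05g0468800 had 51.8 TPM in blades with salt, against 0.755 TPM in control, and a level of 17.2 in sheaths with salt, against 2.11 in control. Their blade log2 ratios of 5.50, 4.83 and 4.91 stood against sheath ratios of 2.52, 2.90 and 2.55. Os01g0160800 had 28.1 TPM in blades with salt, against 1.03 TPM in control, and a level of 22.4 in sheaths with salt, against 2.08 in control.

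**Figure D3:**
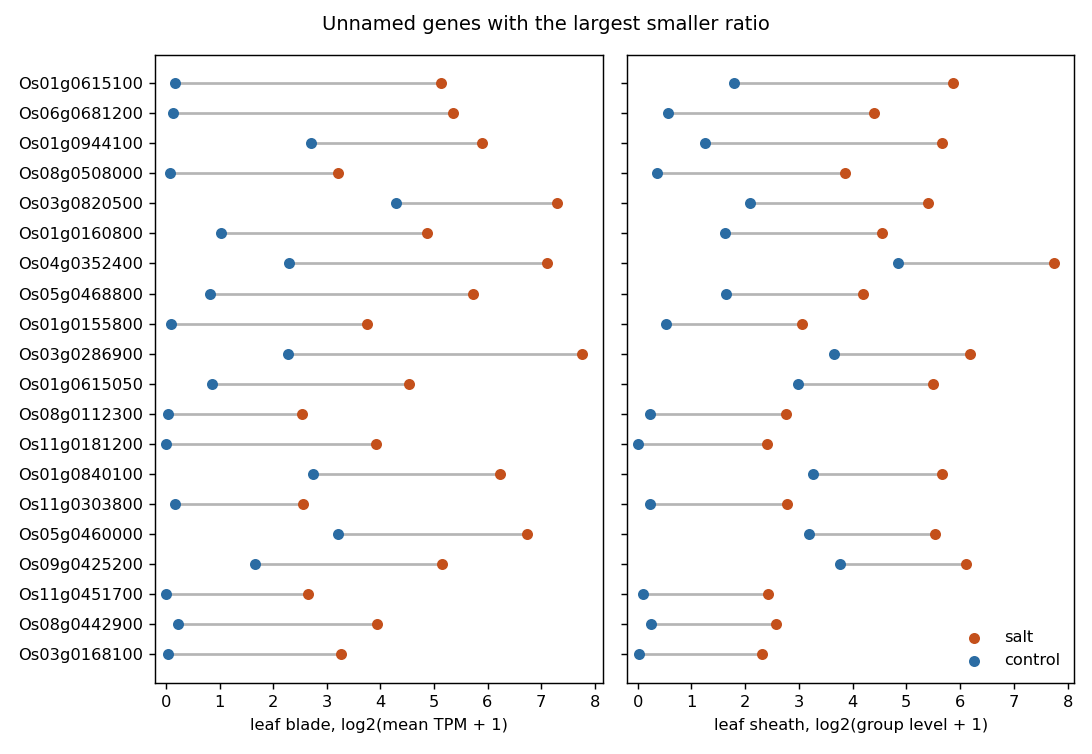
Group levels on a log2 scale with 1 added for the 20 genes without a checked name whose smaller log2 ratio of the 2 tissues is largest, in leaf blades (left, mean TPM) and leaf sheaths (right, level of unnamed unit). Orange points are salt, blue points are control, a grey line joins the group values of a gene, and values per sample are not analysed. Os01g0615100 at the top has long lines in both panels, with blade points at 34.1 TPM for salt and 0.115 TPM for control.

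Of the 199 genes, 7 had no read in either blade control library. ICL is one of them, and the others have no checked name. Against the same floor, reads with salt were at least 62.9-fold higher for Os11g0451700, at least 58.0-fold for Os11g0181200, at least 36.0-fold for Os04g0659300, at least 20.8-fold for Os03g0790500, at least 10.3-fold for Os01g0124401 and at least 5.19-fold for Os06g0731000. The floor is a set value: the lower ends of the two-sided 95% counting intervals of the 7 genes were smaller, from 3.78-fold for Os06g0731000 to 128-fold for ICL. Floor and intervals cover counting error only, so spread between the 2 salt libraries is not in these folds. In the authors' deposited table for blades, q was 0.0021 for Os04g0659300 (118 reads with salt) and 3.5e-05 for Os03g0790500 (68 reads with salt). Silence in control blades did not mean silence in control sheaths. Os04g0659300 had a sheath level of 123 with salt and 26.2 in control, and Os01g0124401 of 103 with salt and 7.81 in control. In sheaths 3 genes were listed at 0 in control: Os11g0181200 and Os06g0731000, which were also without reads in control blades, and Os12g0187800. In all, 34 genes had 10 or fewer reads over both blade control libraries, so the sizes of their blade ratios are poorly fixed.

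At the other end stood genes that were already abundant in control. Os04g0683700 had the highest blade level of the 199 genes with salt, 1233 TPM against 248 TPM in control, and its sheath level was 141 with salt and 51.4 in control. Os09g0537700 followed with 1106 TPM in blades with salt, against 493 TPM in control, and a sheath level of 866 with salt and 355 in control. Os01g0823600 had 1078 TPM in blades with salt, against 347 TPM in control, and a sheath level of 125 with salt and 16.902 in control. The blade log2 ratios of these abundant genes were 2.31, 1.16 and 1.63, the first above and the others below the median of 1.79.

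Os04g0690800 had 801 TPM in blades with salt, against 187 TPM in control, and a sheath level of 296 with salt and 117 in control. Os03g0717900 had 760 TPM in blades with salt, against 313 TPM in control, and a sheath level of 123 with salt and 59.8 in control. Os05g0407100 had a sheath level of 484 with salt and 115 in control, and 225 TPM in blades with salt, against 60.0 TPM in control. Os01g0246400 had a sheath level of 225 with salt and 40.8 in control, and 413 TPM in blades with salt, against 149 TPM in control. Over the 199 genes the blade ratio had a Spearman correlation of -0.35 with the blade control level and the sheath ratio one of -0.09 with the sheath control level. These are descriptions, and a control level enters its own ratio.

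The gap between the tissues leaned to the blade. The blade log2 ratio exceeded the sheath ratio in 130 genes and was the smaller in 69, with a median gap of 0.23. Over the whole blade table, the authors' deposited fold changes differed from plain TPM ratios by a median of -0.19 (log2). That offset is near the median gap in size, and its part in the lean to the blade was not tested. With the authors' deposited blade fold changes and the sheath estimates behind their test, the counts were 115 and 84. A gap of at least 1 was found in 44 genes toward the blade and in 8 toward the sheath, and these counts depend on the scale. With 1 added, the widest gap toward the blade was that of HSP17.9A, at 3.50, whose sheath level was already 72.0 in control. With 0.1 added it was that of HSP26.7, at 5.05, against 3.74 for HSP17.9A. Next came Os03g0286900 at 2.98 and Os03g0305600 at 2.65, and Os03g0305600 had 23.4 TPM in blades with salt, against 0.395 TPM in control, and a sheath level of 2.37 with salt and 0.204 in control. Toward the sheath the widest gap was that of Os01g0124401, at -2.49, whose blade level was 1.1 TPM with salt and 0 in control. Adding 1 to each level holds down the ratio of such a low gene, and with 0.1 added the widest gap toward the sheath was that of Os01g0944100, at -1.68. None of these gaps was tested.

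**Figure D4:**
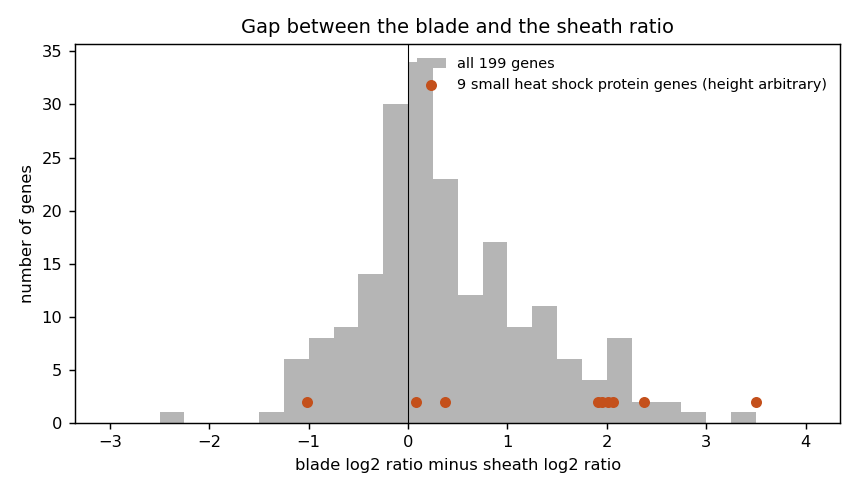
Blade log2 ratio minus sheath log2 ratio (horizontal axis) for the 199 genes, as a histogram of the number of genes (vertical axis). Orange points mark the 9 small heat shock protein genes, at an arbitrary height. The histogram leans to the right of 0, where 130 genes lie, and 8 of the 9 orange points lie there too, with HSP16.0 at -1.02 the exception.

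Some of the genes have neighbouring locus numbers. Within a distance of 1000 locus numbers, 34 of the 199 genes fell into 16 runs, the longest of 3 genes. The share of all listed genes in such runs is not given here, so the count shows no clustering particular to the 199. On chromosome 1, Os01g0136050 lies beside HSP16.9A and HSP16.9B, and had 6.29 TPM in blades with salt, against 0.725 TPM in control. On the same chromosome, Os01g0184050 lies beside HSP18.0, and its log2 ratios were 3.37 in blades and 1.36 in sheaths, against 3.84 and 1.89 for HSP18.0. Os01g0615050 lies beside Os01g0615100, with log2 ratios of 3.67 in blades and 2.52 in sheaths. On chromosome 3, HSP17.9A and HSP18.1 form a run with Os03g0265600, whose log2 ratios were 1.43 in blades and 1.29 in sheaths.

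The pair Os07g0178700 and Os07g0178800 on chromosome 7 was abundant and closely matched. In blades they had 551 and 697 TPM with salt, against 226 and 288 TPM in control. Their sheath levels were 199 and 222 with salt, against 40.9 and 37.7 in control. Both had estimated read counts, as did 10 of the 199 genes in all (5.03%, against 5.58% of the blade table), so reads may have been divided between them. Whether the counting used strand is not given, so neighbours in a run may share reads and their values are uncertain.

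The edge of the rule is not a natural break. Just inside lay Os06g0694200, with log2 ratios of 1.003 in blades and 1.24 in sheaths, Os07g0418500 with 1.05 and 1.01, and Os03g0197000 with 1.22 and 1.01. Just outside lay Os02g0185300, with 1.43 in blades and 0.9985 in sheaths, Os03g0594900 with 0.99 and 0.97, and HSP17.7. A smaller ratio under 1.1 was held by 36 of the 199 genes, and a smaller ratio from 0.9 up to 1 by 23 shared genes outside. By the fold changes in the authors' deposited table for blades, 15 of the 199 genes were under 1 on the log2 scale, the lowest at 0.87. The sheath estimate behind the authors' test, computed from the statistic and error of the authors' deposited table, was at least 1.04 for all 199 genes.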

How the data were processed

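RNA-seq of 8 rice samples was analysed from 2 tables, one per tissue, of genes the authors had selected as changed. HISAT and the build mm10 are named, per the submitters' processing notes; mm10 is of mouse and cannot belong to rice identifiers. No source used here gives the annotation, the counting tool or the test. Per the file headers, the authors deposited for blades a log2 fold change, mean TPM, mean estimated count, mean FPKM and q-value (columns named Case1 were taken as salt). For sheaths they deposited a log2 fold change, levels of unnamed unit (a signal per the file headers), standard error, test statistic (a score) and p-values. The deposited sheath fold change equals the log2 ratio of levels plus 1.

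Genes were taken by log2((salt + 1)/(control + 1)) of at least 1 in both tables, without the identifiers the rule skips. No low-value filter was used and no new test was made, since the tables hold group values of selected genes only. Exact (Clopper-Pearson) 95% intervals of blade read ratios were scaled by the median offset of -0.13 (log2) between deposited fold changes and read ratios; intervals and the floor of 3 reads cover counting error only. The interval method was tested on simulated data. The members and lists were chosen with earlier results of these data known. Genes named were the 12 with the largest smaller ratio, the 5 largest ratios and 5 highest salt levels per tissue, 3 on each side of the threshold, listed genes and runs; genes with the widest gaps and those at 0 in control were added after their values were seen. Of 154 pairs of identifier and name, 115 passed the check against the reference name table (ASM3414082v1), which held 0 of the listed identifiers; 13 pairs were added or corrected after the values were seen. The software was Python 3.11.15 with SciPy 1.17.1, pandas 2.3.3, matplotlib 3.10.9 and NumPy 2.4.6.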

Additional observations from a re-analysis of the deposited data

How the results depend on the processing

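The number of genes at least doubled in both tissues, 199 here, changed most with the threshold and the amount added to each level. It was 83 with 5 added and 77 with a log2 ratio of at least 1.5. With 0.1 added it was 226, with a median log2 ratio of 2.35 in blades and 1.92 in sheaths. With the deposited log2 fold changes it was 191, of which 184 are among the 199, and the blade median was 2.55. With the sheath statistic times standard error it was 214, with a sheath median of 1.97. With a salt level of at least 5 in each table it was 142, with a blade median of 2.04, and at the ratio of 1.5 the medians were 2.52 in blades and 2.08 in sheaths. A blade read ratio with the sheath statistic times standard error, chosen after seeing the data, gave 210 genes, of which 184 are among the 199, and medians of 2.44 and 2.04. Blade FPKM (197 genes), stricter q and p (180) and the skipped identifiers kept in (214) moved neither median beyond a set margin. That margin was 0.254 in blades and 0.286 in sheaths (log2), taken from errors of single genes, and is no error of a median. Of the 142 tissue ratios of the genes that the naming rule gives, 98 moved beyond their error with 5 added, 57 with 0.1 added, 32 with the deposited fold changes, 28 with the sheath statistic times standard error and 57 with the read ratio. None of these values changed sign, which the rule itself fixes. The tissue gaps were recomputed after seeing the data. A gap of at least 1 was found in 44 genes toward the blade and 8 toward the sheath with 1 added, in 68 and 13 with 0.1 added, in 27 and 5 with 5 added, in 86 and 10 with the deposited fold changes, and in 69 and 23 with the deposited blade fold change and the sheath statistic times standard error. The blade ratio was the larger in 115 to 137 genes. Leaving out a replicate was not run, since the tables hold group values. No paired analysis was possible because the tables give no value per sample. A search of promoters for abscisic acid motifs and a test of the difference between tissues were not run. Low blade control reads limit the ratios of 34 genes, and the sheath depth is unknown.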
